A study of Mus musculus with 157 samples.

Results

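The genes described here encode the pre-T cell receptor alpha chain, Ptcra, and the CD3 signalling chains that are assembled with it, Cd3e, Cd3d, Cd3g and Cd247. The members were chosen as the rows whose Ensembl mouse identifiers map to these symbols. All 5 genes were found, of 50686 genes in each of the 2 count tables. Their levels were followed through 157 bulk RNA-seq libraries of mouse thymus and thymic lymphoma.

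In thymocytes that carry neither CD4 nor CD8 (double-negative, DN), a newly rearranged T cell receptor beta chain pairs with the Ptcra protein. This pre-T cell receptor sits in the membrane with the CD3 chains, and its signal lets cells pass beta selection at the DN3 stage. Later, in cells that carry CD4 and CD8 together (DP), a rearranged alpha chain takes the place of Ptcra, while the CD3 chains stay as the signalling part of the mature receptor. CD3 epsilon forms dimers with CD3 delta or CD3 gamma, and the zeta chain made by Cd247 forms a dimer with itself. All CD3 chains and zeta carry tyrosine motifs (ITAMs) that the kinase Lck phosphorylates and that Zap70 then binds. Notch signalling and E proteins, which bind E-box motifs, are known activators of Ptcra transcription in mouse thymocytes.

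The libraries came from Cdc20(D/AAA) mice, called aneuploid in the series title, and from Cdc20(+/D) control mice. Cdc20 is an activator of the anaphase-promoting complex. Control mice carry the D allele as well, so no group with a Cdc20 genotype in its label is free of it. The labels spell out neither D and AAA nor the prefixes RERT2, LCK and CD4 of the genotypes, and they give no ages and no promoters. They also do not say whether libraries of a group came from separate animals, or whether stages were sorted from the same animals. The libraries were fitted as separate samples, and the p-values measure the spread between them. The Cdc20 genotypes carry the prefix RERT2 wherever none is named below, and the label of the p53(-/-) tumour names no Cdc20 allele.

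The earlier of the 2 tables held 81 libraries. Sorted Cdc20(D/AAA) thymocytes numbered 9 libraries at DN1, 1 at DN2, 5 at DN3, 6 at DN4 and 11 at DP. Sorted Cdc20(+/D) thymocytes numbered 6 at DN1, 8 at DN2, 8 at DN3, 8 at DN4 and 7 at DP. Cdc20(D/AAA) early tumours gave 5 libraries of sorted DP cells and 7 unsorted ones. The later table held 76 libraries of whole tissue. Its tumours were 2 of CD4-Cdc20(D/AAA) with MYCChr6, 14 of LCK-Cdc20(D/AAA) with MYCChr6, 4 of LCK-Cdc20(+/D) with MYCChr6, 3 of Cdc20(D/AAA) with MYCChr6, 1 p53(-/-), 10 of Cdc20(D/AAA) with p53(+/D) and 22 of Cdc20(D/AAA) alone. Its non-tumoral thymus libraries were 3 of Cdc20(D/AAA) with MYCChr6, 2 of Cdc20(+/D) with MYCChr6, 9 of Cdc20(D/AAA) and 6 of Cdc20(+/D). The labels do not say what MYCChr6 stands for. Progenitors were sorted as at least 5000 cells into lysis buffer, and tumours were taken without sorting unless labelled otherwise.

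Library totals ran from 2701382 to 11595463 counts in the earlier table, apart from 1 Cdc20(D/AAA) DN1 library of 21199 counts, and from 1708619 to 8009572 in the later one. Levels are counts per 1000000 counts of a library (CPM), scaled by the trimmed mean of M-values within each table, so levels of the 2 tables were not compared by a test. The stage labels were checked against markers. Il2ra, the CD25 chain that marks DN2 and DN3, had a median of 14.9 CPM at DN1, 674 CPM at DN2, 476 CPM at DN3, 7.12 CPM at DN4 and 10.8 CPM at DP in Cdc20(+/D) cells. The libraries labelled DN1 also held natural killer and innate transcripts. The 5 markers of that list summed to a median of 3084 CPM in Cdc20(D/AAA) DN1 and 3409.9 CPM in Cdc20(+/D) DN1, beside 271 CPM in Cdc20(+/D) DN2. B cell markers summed to a median of 1358 CPM and myeloid markers to 527 CPM in Cdc20(+/D) DN1. In Cdc20(+/D) DN2 these medians were 107 and 73.5 CPM. Of the 2 DN1 markers, Cd44 and Kit, 1 was higher and 1 lower at DN2 in Cdc20(+/D) cells. Trac, the alpha chain constant region, averaged 2.96 ± 1.66 CPM at DN2 (SD, n = 8), against 914 ± 144 CPM in the same Cdc20(+/D) DN1 libraries (SD, n = 6). The DN1 libraries are therefore called by their label only, and the part of these cells in the DN1 results was not tested.

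Ptcra (ENSMUSG00000036858) lies on the minus strand of chromosome 17 at chr17:46755663-46763712 (GRCm38), with 1283 bases in 4 exon blocks. Cd3g (ENSMUSG00000002033, chr9:44969572-44980431, minus strand, 3269 exonic bases) and Cd3d (ENSMUSG00000032094, chr9:44981786-44987339, plus strand, 1815 exonic bases) are divergent neighbours whose starts lie 1354 bases apart. Cd3e (ENSMUSG00000032093, chr9:44998740-45009627, minus strand, 4080 exonic bases) follows in the same cluster of 40056 bases. Cd247 (ENSMUSG00000005763, chr1:165788681-165877277, plus strand, 5329 exonic bases) is on another chromosome. Of its exonic bases, 56.4% overlap the gene Pou2f1 on the opposite strand. Since the strand setting of the counting is not given, reads of Cd247 and Pou2f1 cannot be told apart there, and Pou2f1 had a median of 35.4 CPM in the earlier table and 39.3 CPM in the later one.

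The 250 bases before the annotated start are shown for 3 members that followed different courses below, Ptcra and Cd3g, highest at DN2 and DN3, and Cd247, highest at DP. Bases are from RefSeq on GRCm38.p6, printed 5′ to 3′ on the strand of the gene, with matches to the E-box CANNTG in capitals. The windows are chr17:46763713-46763962 for Ptcra, chr9:44980432-44980681 for Cd3g and chr1:165788431-165788680 for Cd247.
Ptcra: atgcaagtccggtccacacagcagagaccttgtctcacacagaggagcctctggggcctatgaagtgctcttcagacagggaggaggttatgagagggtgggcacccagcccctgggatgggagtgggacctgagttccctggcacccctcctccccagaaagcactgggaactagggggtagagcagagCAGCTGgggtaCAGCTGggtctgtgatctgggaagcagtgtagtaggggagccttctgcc
Cd3g: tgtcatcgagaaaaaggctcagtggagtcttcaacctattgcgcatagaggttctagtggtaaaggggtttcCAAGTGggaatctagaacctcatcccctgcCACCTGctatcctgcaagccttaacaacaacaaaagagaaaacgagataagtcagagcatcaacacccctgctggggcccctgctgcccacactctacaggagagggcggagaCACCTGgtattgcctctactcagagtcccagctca
Cd247: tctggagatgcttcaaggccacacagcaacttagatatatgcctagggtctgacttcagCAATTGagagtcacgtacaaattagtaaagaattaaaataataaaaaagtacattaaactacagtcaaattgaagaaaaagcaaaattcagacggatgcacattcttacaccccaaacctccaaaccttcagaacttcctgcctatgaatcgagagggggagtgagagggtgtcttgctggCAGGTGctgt

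The Ptcra window held 2 E-box matches with the same letters, CAGCTG, the Cd3g window 3 and the Cd247 window 2, while the windows of Cd3e and Cd3d held 1 each. E-box letters occurred in 66.2% of 32851 RefSeq promoter windows of the same length, and 31.8% held at least 2. Other letters were searched on both strands. The RBPJ letters GTGGGAA (5.42% of windows) matched once, in Cd3g, where they overlap the first E-box, and the GATA letters AGATAA (9.99%) also matched once in Cd3g. The TCF/LEF letters CTTTGA (13.8%) matched at 2 places in Cd3d, and the RUNX letters TGTGGT (14.05%) matched in 0 of the 5 windows. These are matches of letters only.

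In Cdc20(+/D) thymocytes Ptcra was close to absent at DN1, high at DN2 and DN3, and lower from DN4 on, while its partner chains changed by far less. Its level had a lowest, median and highest value of 0.382, 0.868 and 10.2 CPM at DN1, 166, 293 and 658 CPM at DN2, 498, 601 and 802 CPM at DN3, 121, 156 and 194 CPM at DN4, and 67.0, 104 and 159 CPM at DP. The DN1 libraries lay below every other stage, the DN3 libraries lay above DN4 and DP without overlap, and DN2 overlapped DN3 and DN4. Ptcra rose at DN2 relative to DN1 by 7.07 ± 0.51 on the log2 scale (SE, edgeR adjusted p = 7.51e-14). It fell at DN4 relative to DN3 by 3.93-fold (log2 change -1.97 ± 0.34, edgeR adjusted p = 6.60e-05). The steps DN2 to DN3 (log2 change 0.92 ± 0.33, edgeR adjusted p = 0.127) and DN4 to DP (-0.59 ± 0.34, edgeR adjusted p = 0.156) did not pass the threshold of 0.05. With limma voom and quality weights they did, at adjusted p = 6.84e-05 and 0.00732.

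Cd3g, the gamma chain, was the CD3 gene with the widest range over the stages in absolute CPM. As a fold, the largest change of a CD3 gene between neighbouring stages was that of Cd247, 3.47-fold at DP. Cd3g averaged 1299 ± 211 CPM at DN1, 2946 ± 451 CPM at DN2, 2199 ± 304 CPM at DN3, 835 ± 192 CPM at DN4 and 1051 ± 103 CPM at DP in Cdc20(+/D) cells (SD, n = 6, 8, 8, 8 and 7). Every DN2 library (2343 to 3618 CPM) lay above every DN1 library (1045 to 1601 CPM), and every DN4 library (536 to 1112 CPM) lay below every DN3 library (1840 to 2540 CPM, the lowest at 1839.6). Cd3g rose at DN2 by 1.21 ± 0.13 and fell at DN3 by 0.43 and at DN4 by 1.40 on the log2 scale, the last a 2.64-fold change (edgeR adjusted p = 5.73e-10, 0.0270 and 3.46e-11). Its rise at DP was small (0.35 ± 0.12, edgeR adjusted p = 0.0165) and did not pass without the filter on low counts (edgeR adjusted p = 0.0994).

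Cd3d, the delta chain and divergent neighbour of Cd3g, took another course. It averaged 874 ± 137, 616 ± 169, 986 ± 169, 631 ± 154 and 1055 ± 130 CPM from DN1 to DP. It fell at DN2 (log2 change -0.47 ± 0.16, edgeR adjusted p = 0.0129), rose at DN3 (0.67 ± 0.15, edgeR adjusted p = 0.00406), fell at DN4 (-0.65 ± 0.15, edgeR adjusted p = 0.00194) and rose at DP (0.76 ± 0.15, edgeR adjusted p = 7.76e-05). Per kilobase of exon, the level of Cd3g was 0.833 times that of Cd3d at DN1, 2.77 times at DN2, 1.26 times at DN3, 0.743 times at DN4 and 0.556 times at DP, as means over the libraries. The ratio of these neighbours thus rose between DN1 and DN2 and fell at each later step. The scale divides by all annotated exonic bases of a gene, so a ratio above or below 1 is no order of transcript numbers. The same limit holds for the per-kilobase values of Ptcra and Trac below.

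Cd3e, the epsilon chain shared by both CD3 dimers, averaged 691 ± 144, 507 ± 144, 553 ± 69.1, 361 ± 49.4 and 753 ± 104 CPM from DN1 to DP. It fell at DN2 (-0.41 ± 0.14, edgeR adjusted p = 0.0121) and at DN4 (-0.62 ± 0.13, edgeR adjusted p = 0.000673), and it rose at DP (1.08 ± 0.13, edgeR adjusted p = 1.14e-08). All 7 DP libraries (655 to 954 CPM) lay above all 8 DN4 libraries (297 to 438 CPM).

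Cd247, the zeta chain, was level until DN4 and high at DP. It averaged 294 ± 29.2, 241 ± 26.9, 255 ± 47.6, 260.2 ± 29.9 and 892 ± 61.9 CPM from DN1 to DP. Its DP libraries (799.8 to 962 CPM) lay far above its DN4 libraries (213 to 303 CPM), a 3.47-fold rise (log2 change 1.79 ± 0.10, edgeR adjusted p = 2.58e-17). The small fall at DN2 (-0.25 ± 0.11, edgeR adjusted p = 0.0451) did not pass without the filter on low counts (edgeR adjusted p = 0.0687). Per kilobase, the level of Cd247 relative to that of Cd3e was 0.337 at DN1, 0.381 at DN2, 0.358 at DN3, 0.560 at DN4 and 0.918 at DP.

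Over the 5 members, 2 rose and 3 fell at DN2 relative to DN1, where 48.5% of 15278 genes tested were called, 24.6% higher and 23.9% lower. At DN3 relative to DN2, 1 rose and 1 fell, beside 4.35% of genes, 1.2% higher and 3.14% lower. At DN4 relative to DN3, 0 rose and 4 fell, beside 15% of genes, 7.47% higher and 7.53% lower. At DP relative to DN4, 4 rose and 0 fell, beside 49.5% of genes, 24.5% higher and 25% lower. Ranges without overlap, either way, were found for 24.9% of genes at DN2 against DN1, 3.85% at DN4 against DN3 and 21.3% at DP against DN4. The falls of Ptcra and Cd3g at DN4 were of this kind, at a step where few genes were. At that step 5 of 5 red cell markers, 4 of 5 B cell markers and the natural killer T cell marker Zbtb16 rose. Of 4 myeloid markers tested, 1 fell. The B cell markers summed to a median of 49.3 CPM at DN4, with a highest of 1122 CPM, and of 66.3 CPM at DN3. The part of these cells in the DN4 falls was not tested. In bulk RNA, a change in the share of cells that express a gene and a change in RNA per cell cannot be told apart.

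**Figure D1:**
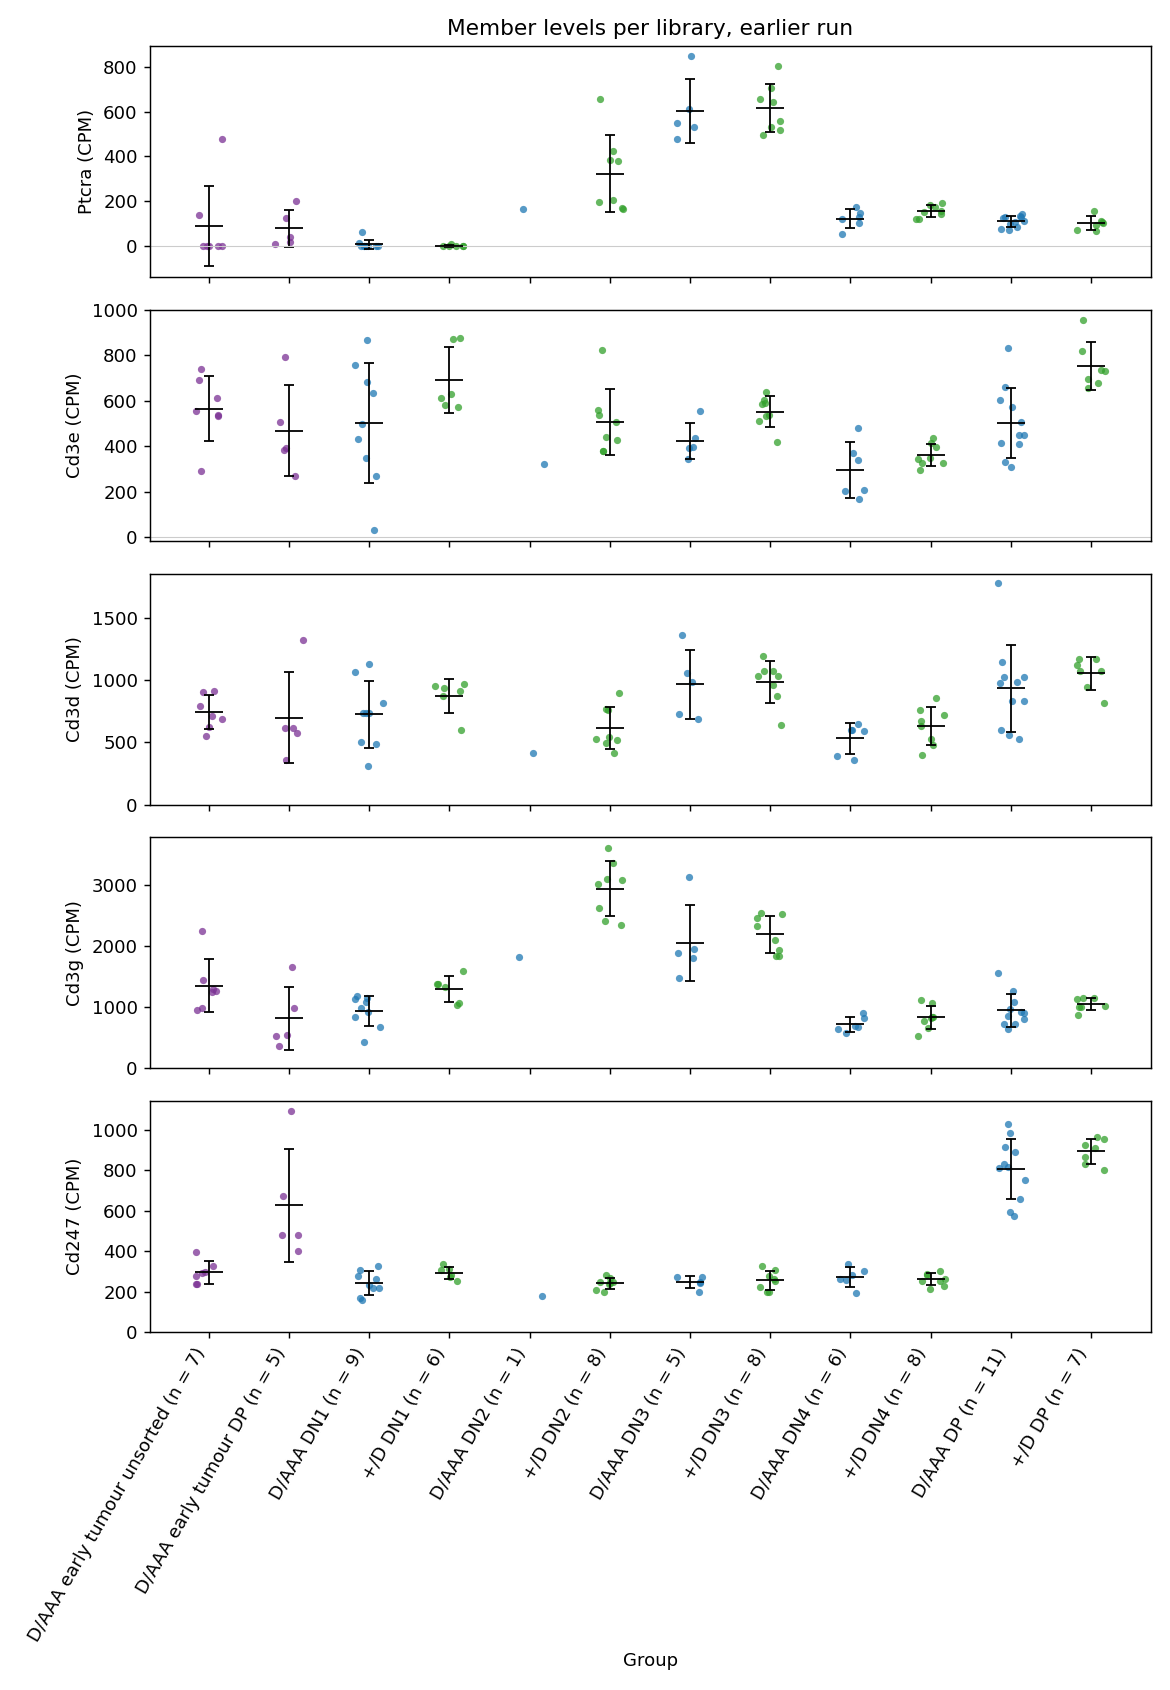
Level of each member in CPM (linear axes from 0) in the 12 groups of the earlier table, 1 panel per gene. Points are libraries and bars are mean ± SD; at each stage Cdc20(D/AAA) stands left of Cdc20(+/D), and the 2 early tumour groups stand at the left. Ptcra is near 0 at DN1 and highest at DN3, and Cd247 is highest at DP.

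From DN3 on, Trac took the opposite course to Ptcra. Per kilobase, Ptcra made up a mean of 0.223% of the sum of Ptcra and Trac at DN1, 98.2% at DN2, 98.2% at DN3, 50.9% at DN4 and 9.07% at DP in Cdc20(+/D) cells. Trac rose at DN3 (1.38 ± 0.24, edgeR adjusted p = 0.000172), to 7.78 ± 2.44 CPM, at DN4 (3.81 ± 0.22, edgeR adjusted p = 7.25e-16) and again at DP (2.81 ± 0.21, edgeR adjusted p = 5.47e-14). At DN4, 4 of 8 Cdc20(+/D) libraries had more Ptcra than Trac per kilobase, and at DP 0 of 7 did. The beta chain constant regions Trbc1 and Trbc2 were already high at DN2, at 1889 ± 267 and 2244 ± 312 CPM. They are near-identical in sequence, so the split of reads between them is uncertain.

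In Cdc20(D/AAA) thymocytes Ptcra was highest at DN3 too. It had 476, 846, 611, 551 and 530 CPM in the 5 DN3 libraries, and a lowest, median and highest value of 55.3, 127 and 177 CPM at DN4 and 73.6, 113 and 145 CPM at DP. All DN3 libraries lay above all DN4 and DP libraries. At DN1 the median was 1.10 CPM. The highest DN1 value, 62.6 CPM, rests on 2 counts in the library of 21199 counts. That library also had the highest sum of DP markers in its group, 1314 CPM against a median of 18.7 CPM. Its sum of innate markers was the lowest, 93.9 CPM against a median of 3084 CPM. It stayed in the main fits, and the part of its cell content in the DN1 values was not tested. The 1 DN2 library had 164 CPM of Ptcra, 323 of Cd3e, 417 of Cd3d, 1818 of Cd3g and 178 of Cd247. With no replicate it entered no test.

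The CD3 chains of Cdc20(D/AAA) cells are given at DN1, DN3, DN4 and DP in order. Cd3g averaged 937 ± 248.8, 2054 ± 630, 722 ± 126 and 954 ± 269 CPM (SD, n = 9, 5, 6 and 11), so that it too was highest at DN3. Cd247 averaged 241 ± 58.7, 247 ± 29.9, 272 ± 48.6 and 805 ± 149 CPM, with every DP library (576 to 1028 CPM) above every DN4 library (191 to 336 CPM). Cd3e averaged 503 ± 263, 425 ± 79.1, 296 ± 122 and 503 ± 155 CPM, and Cd3d 726 ± 267, 966 ± 275, 532 ± 122 and 936 ± 351 CPM. Per kilobase, Cd3g was 0.744, 1.19, 0.775 and 0.590 times Cd3d. Ptcra made up a mean of 98.0% of the sum of Ptcra and Trac per kilobase at DN3, 46.6% at DN4 and 11.9% at DP.

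Within Cdc20(D/AAA), 2 members rose at DN3 relative to DN1, Ptcra by 8.06 ± 0.69 and Cd3g by 1.13 ± 0.21 (edgeR adjusted p = 1.22e-10 and 5.25e-05), and 0 fell, beside 40.6% of genes called, 19.7% higher and 20.9% lower. At DN4 relative to DN3, 2 fell, Ptcra (-2.24 ± 0.60, edgeR adjusted p = 0.0312) and Cd3g (-1.46 ± 0.23, edgeR adjusted p = 0.000145), and 0 rose, beside 3.16% of genes, 2% higher and 1.17% lower. The ranges of both did not overlap, as for 3.5% of genes. The Ptcra call was lost with DESeq2 (adjusted p = 0.156), without the filter on low counts (edgeR adjusted p = 0.0936), and when DN3 replicate 2, 3 or 4 was left out (edgeR adjusted p = 0.0873, 0.0601 and 0.0555). At DP relative to DN4, Cd3d (0.78 ± 0.24, edgeR adjusted p = 0.0151) and Cd247 (1.53 ± 0.17, edgeR adjusted p = 5.50e-08) rose and 0 fell, beside 29.4% of genes, 14.2% higher and 15.2% lower. Ranges did not overlap for 5.29% of genes, Cd247 among them. Cd3e missed the threshold there (0.74 ± 0.29, edgeR adjusted p = 0.0533) but passed under 5 alternatives, DESeq2 among them (adjusted p = 0.0148). Red cell transcripts differed between the DN4 groups: the 5 markers, globins and Alas2, summed to a median of 15366 CPM (1778 to 35937) in Cdc20(D/AAA) DN4 and 683 CPM (117 to 3039) in Cdc20(+/D) DN4. Their part in the DN4 values was not tested.

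**Figure D2:**
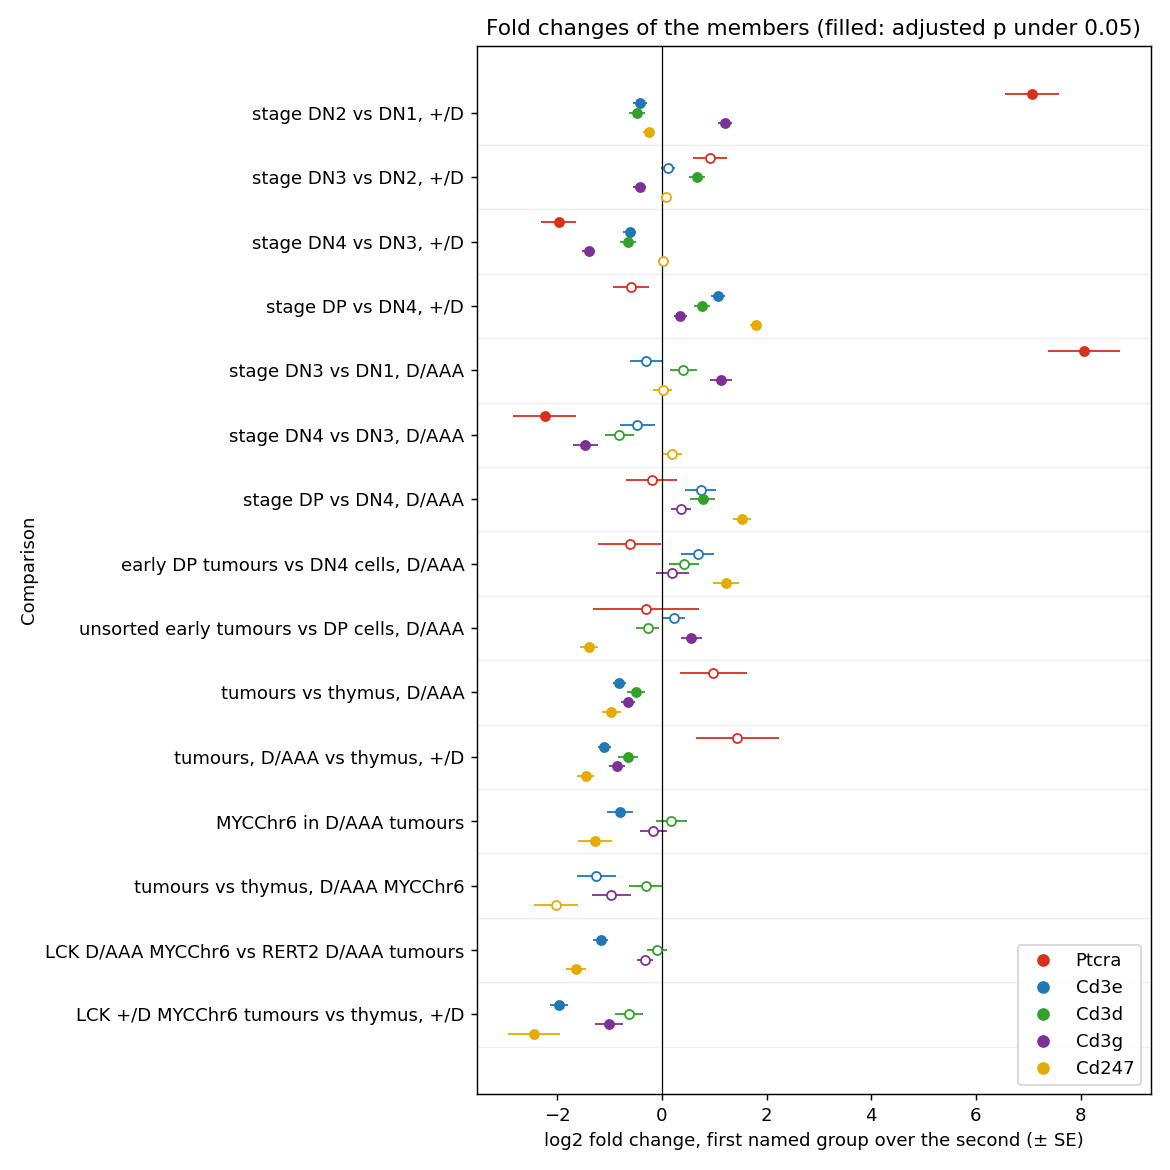
Log2 fold changes of the members (group named first over the other; error bars ± SE, edgeR) in the 15 comparisons that called at least 1 of them. Filled points passed an adjusted p of 0.05; Ptcra is not drawn in the 4 comparisons of MYCChr6 tumours, where its counts are near 0. The Ptcra points farthest from 0 are the rises at DN2 and DN3 over DN1, and all 4 CD3 chains lie below 0 in Cdc20(D/AAA) tumours against thymus.

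Between the genotypes, 0 of the members was called at any of the 4 stages that could be tested. Called genes made up 0% at DN1, 0% at DN3, 0.0081% at DN4 and 0.00803% at DP. DESeq2 and limma voom also called 0 members. At an unadjusted p under 0.05, edgeR had 1 member at DN3 and 1 at DP, Cd3e each time, and 0 at DN1 and DN4. Cd3e had a lowest, median and highest value of 308, 449 and 833 CPM in Cdc20(D/AAA) DP cells, against 655, 729 and 954 CPM in Cdc20(+/D) DP cells (log2 difference -0.53 ± 0.17, edgeR adjusted p = 0.306). At DN3 it had 346, 437, 391, 395 and 554 CPM in Cdc20(D/AAA) cells, against a lowest, median and highest of 419, 563 and 641 CPM in Cdc20(+/D) cells (-0.36 ± 0.14, edgeR adjusted p = 0.995). The ranges overlapped at both stages. Ptcra differed by -0.01 ± 0.15 at DN3, -0.31 ± 0.19 at DN4 and 0.17 ± 0.18 at DP on the log2 scale. At DN1 Ptcra did not pass the filter on low counts. A test of whether the genotype difference depended on the stage called 0 of 5 members (edgeR adjusted p = 1 for each, unadjusted p from 0.435 to 0.902), beside 0.134% of genes.

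The 6 lists of other genes of the pathway were set beside the shares of all genes called at the same steps, which were 48.5% at DN2 against DN1, 15% at DN4 against DN3 and 49.5% at DP against DN4 in Cdc20(+/D) cells, and 3.16% and 29.4% at the last 2 steps in Cdc20(D/AAA) cells. Of 15 kinases and adaptors of proximal receptor signalling, 14 rose and 0 fell at DP relative to DN4 in Cdc20(+/D) cells (median log2 change 1.20, against 0.01 over all genes), and 10 rose and 0 fell in Cdc20(D/AAA) cells. Among them were Rasgrp1 (1.85 ± 0.19), a Ras activator, and Lcp2 (1.64 ± 0.11), the adaptor SLP-76. Of 11 receptor-response genes tested, 8 rose and 0 fell at DN4 relative to DN3 in Cdc20(+/D) cells (median 1.97, against 0.01), and 7 rose and 0 fell in Cdc20(D/AAA) cells. They included Egr2 (3.36 ± 0.82), an early growth response factor, and Cd2 (3.21 ± 0.24), an adhesion receptor. At DN2 relative to DN1, 0 of these genes rose and 10 fell.

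Among 13 transcription factors linked to the Ptcra and Cd3 loci, 7 rose and 3 fell at DN2 relative to DN1 in Cdc20(+/D) cells, where 24.6% of all genes rose and 23.9% fell. Notch1 had 667 ± 366 CPM at DN2, against 97.2 ± 26.8 CPM at DN1 (log2 change 2.81 ± 0.32, edgeR adjusted p = 2.1e-09), and Tcf12, the E protein HEB, rose by 2.19 ± 0.15. At DN4 relative to DN3, 1 rose and 5 fell, among these Notch1 (-1.55 ± 0.27) and Runx1 (-1.59 ± 0.16). Of 13 negative regulators of the receptor, 8 rose and 3 fell at DP relative to DN4. They included Cd5 (1.93 ± 0.21) and Sla (1.73 ± 0.11), an adaptor that lowers surface receptor levels. The 7 receptor constant regions split at that step, with 3 higher and 4 lower, the falls led by the gamma chain regions Tcrg-C4 (-5.20 ± 0.32) and Tcrg-C2 (-4.81 ± 0.36). Of 7 other ITAM chains and adaptors, 6 fell at DN2 relative to DN1, led by Fcer1g (-6.15 ± 0.49), which is also 1 of the 5 innate markers.

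In the early tumours, sorted DP cells held a wide range of Ptcra. The 5 libraries had 125, 42.6, 11.5, 202 and 16.9 CPM, against a lowest, median and highest of 73.6, 113 and 145 CPM in non-tumoral Cdc20(D/AAA) DP cells. In this group 3 libraries lay below, 1 above and 1 within the range of non-tumoral cells. Relative to those DP cells, 0 of 5 members was called by edgeR (0% of genes, with 2719 genes and 0 members at an unadjusted p under 0.05), 0 by DESeq2 and 1 by limma voom, Cd247 (-0.57, adjusted p = 0.0368). The 0% of genes depended on the setting. Over all genes, DESeq2 called 382 higher and 450 lower, and limma voom 1199 higher and 928 lower. With 1 edgeR fit of all libraries of the table, 903 genes were higher and 633 lower. Relative to Cdc20(D/AAA) DN4 cells, 1 member was called, higher, beside 4.31% of genes, 2.43% higher and 1.89% lower. Cd247 had 1093, 481, 481, 674 and 400.0 CPM in early DP tumours and 191 to 336 CPM in DN4 cells (log2 change 1.23 ± 0.26, edgeR adjusted p = 0.0140), without overlap, as for 4.69% of genes. With only the last 25 libraries of the table, which hold 2 of the DN4 libraries, the log2 change was 1.34 and the call was lost (edgeR adjusted p = 0.295). The split was placed where library totals drop in the order of the table. All early tumour libraries lie among these 25, and all Cdc20(+/D) libraries lie among the first 56. Tumour status and genotype therefore go partly with position in the table.

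The 7 unsorted early tumours fell apart in Ptcra. They had 2.07, 476, 139.9, 0, 1.48, 1.14 and 0.254 CPM. In order, the second and the third were high, and the second also had 557 CPM of Il2ra. The 5 other libraries held innate transcripts, with 1268 to 3096 CPM of the granule gene Nkg7, against 74.8 and 60.03 CPM in those 2. Their part in the result was not tested. Relative to Cdc20(D/AAA) DP cells, Ptcra was not called (-0.30 ± 1.01, edgeR adjusted p = 0.851), and without those 2 libraries the log2 change was -6.79. That value is a description, since the libraries left out are the 2 with the highest Ptcra. Cd247 averaged 295 ± 55.3 CPM in the unsorted early tumours and 805 ± 149 CPM in DP cells (SD, n = 7 and 11), with no overlap (-1.39 ± 0.17, edgeR adjusted p = 8.58e-06). Cd3g averaged 1353 ± 436 CPM there and 954 ± 269 CPM in DP cells (0.56 ± 0.21, edgeR adjusted p = 0.0449), a call lost without the same 2 libraries (edgeR adjusted p = 0.071). These 2 calls, 1 higher and 1 lower, stand beside 29.1% of genes, 15.9% higher and 13.2% lower, and 3.85% of genes had ranges without overlap. The DP markers summed to a median of 49.8 CPM in the unsorted early tumours and 5774 CPM in Cdc20(D/AAA) DP cells. The innate markers summed to a median of 3422 CPM in these tumours and 3084 CPM in Cdc20(D/AAA) DN1, where Cd247 averaged 241 ± 58.7 CPM. The part of cell content in these calls was not tested.

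In whole non-tumoral thymus no member was called between the genotypes. Ptcra had a lowest, median and highest value of 12.7, 29.6 and 57.6 CPM in Cdc20(D/AAA) thymus, against 20.1, 24.3 and 28.7 CPM in Cdc20(+/D) thymus (log2 difference 0.45 ± 0.28, edgeR adjusted p = 0.688). Cd247 had 223, 612 and 828 CPM in Cdc20(D/AAA) thymus, against 739, 841 and 922 CPM in Cdc20(+/D) thymus (-0.49 ± 0.21, edgeR adjusted p = 0.561). Of the 5 members 0 was called, beside 0% of genes, while 907 genes and 2 members, Cd3e and Cd247, had an unadjusted p under 0.05. DESeq2 and limma voom called 0 members. Cdc20(D/AAA) thymus replicate 7 held the highest Ptcra and the lowest Cd247 of its group and the lowest sum of the DP markers, 468 CPM against 2056 CPM at the median. With MYCChr6 the 3 Cdc20(D/AAA) thymus libraries had 8.19, 29.0 and 45.8 CPM of Ptcra, and 0 members were called relative to Cdc20(D/AAA) thymus (0.0252% of genes; 0 members at an unadjusted p under 0.05, and 0 by DESeq2 or limma voom).

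**Figure D3:**
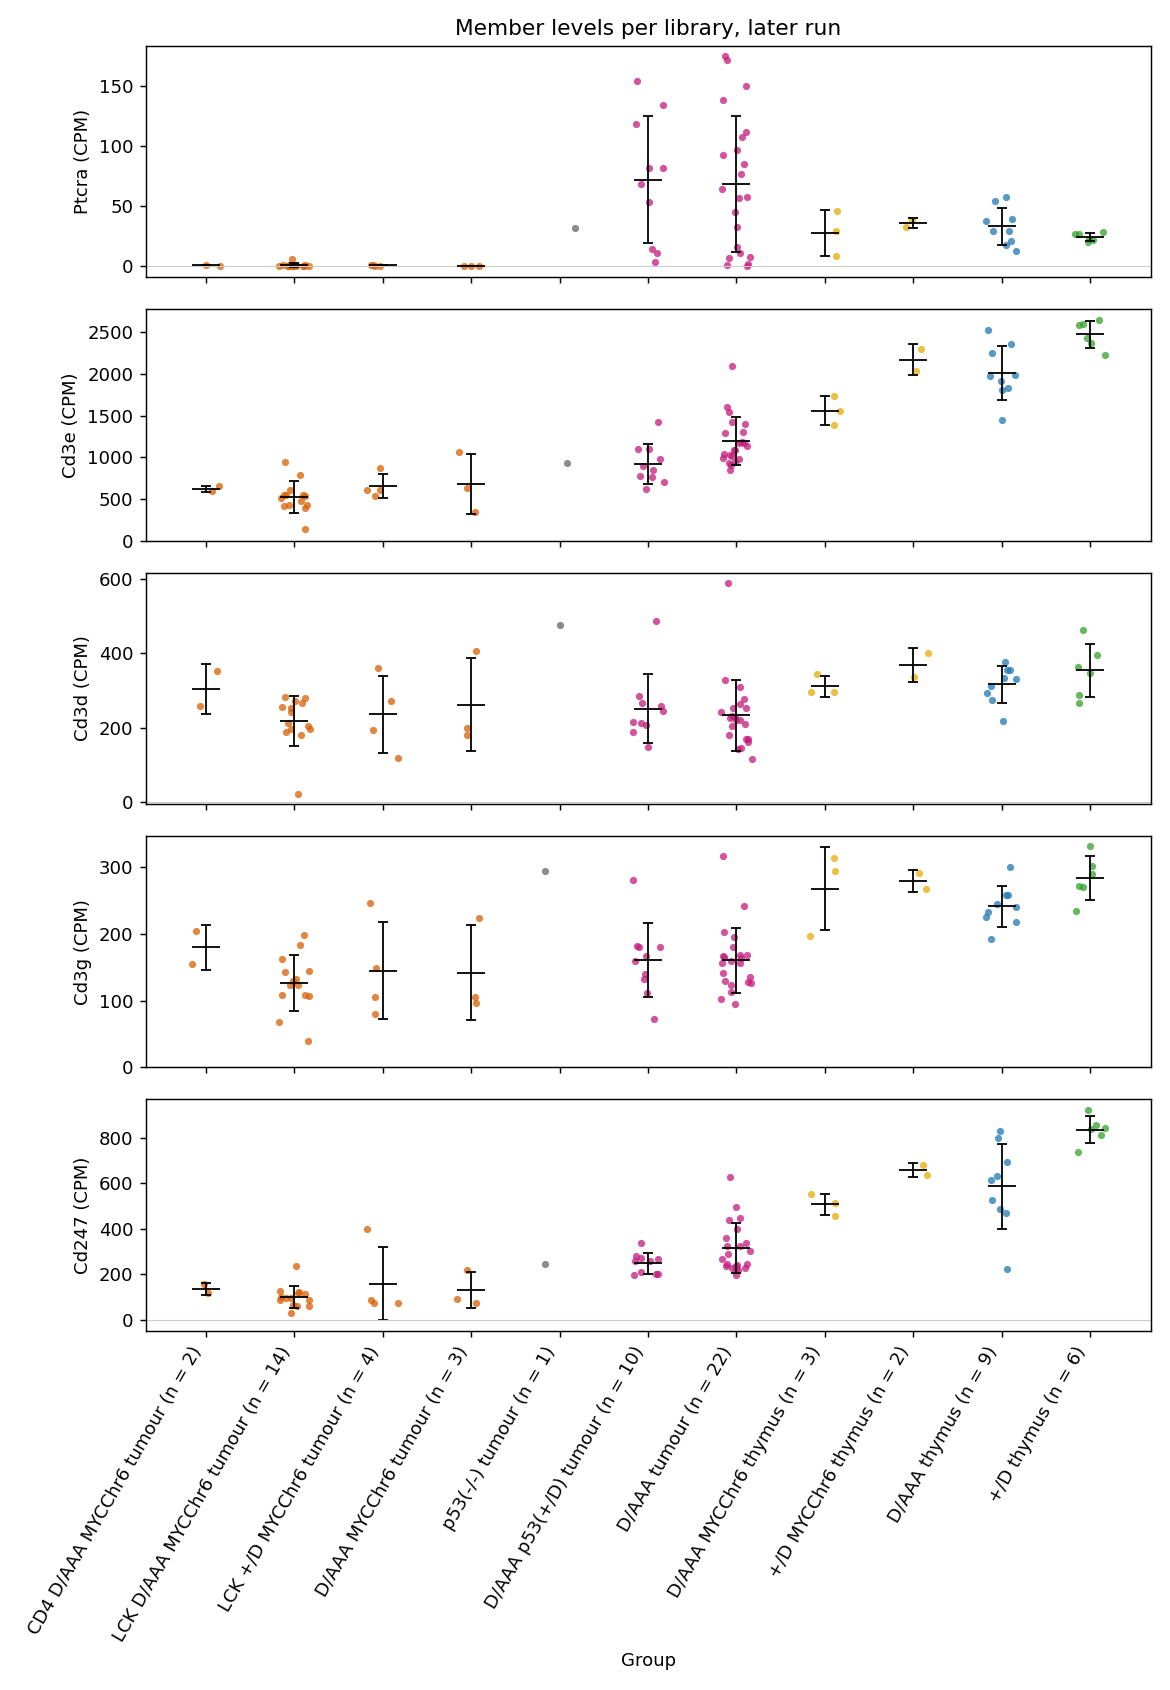
Level of each member in CPM (linear axes from 0) in the 11 groups of the later table, 1 panel per gene. Points are libraries and bars are mean ± SD; tumours stand left of non-tumoral thymus. Ptcra is spread from 0.203 to 174 CPM among the 22 Cdc20(D/AAA) tumours and lies at or below 5.80 CPM in the MYCChr6 tumours.

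All 4 CD3 chains fell in the 22 Cdc20(D/AAA) tumours relative to Cdc20(D/AAA) thymus, while Ptcra was spread to both sides of it. The 4 lower calls stand beside 34.9% of genes called, 18.1% higher and 16.8% lower. Cd3e had a lowest, median and highest value of 849.8, 1111 and 2097 CPM in the tumours, against 1453, 1980.4 and 2527 CPM in Cdc20(D/AAA) thymus (log2 change -0.82 ± 0.12, edgeR adjusted p = 5.33e-06). In 19 of the 22 tumours Cd3e lay below all 9 thymus libraries.

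Cd247 had 195, 278 and 627 CPM in the tumours, against 223, 612 and 828 CPM in Cdc20(D/AAA) thymus (-0.96 ± 0.18, edgeR adjusted p = 9.83e-05). Here 2 tumours lay below the thymus range and 20 within it, the lowest thymus value being that of replicate 7. Cd3g averaged 161 ± 48.8 CPM in tumours and 241 ± 30.2 CPM in thymus (SD, n = 22 and 9; -0.64 ± 0.14, edgeR adjusted p = 0.000480), with 18 tumours below the thymus range. Cd3d averaged 234 ± 95.4 CPM in tumours and 317 ± 49.1 CPM in thymus (-0.49 ± 0.17, edgeR adjusted p = 0.0215), with 9 tumours below, 1 above and 12 within.

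Ptcra had a lowest, median and highest value of 0.203, 60.5 and 174 CPM in the 22 tumours, against 12.7, 29.6 and 57.6 CPM in Cdc20(D/AAA) thymus. In 6 tumours it lay below the thymus range, in 11 above and in 5 within. The mean difference was not called (log2 change 0.98 ± 0.63, edgeR adjusted p = 0.233). Relative to the narrower Cdc20(+/D) thymus, 7 tumours lay below the range of Ptcra and 15 above, with 0 inside (1.44 ± 0.80, edgeR adjusted p = 0.152).

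The same tumours set against Cdc20(+/D) thymus gave falls for all 4 CD3 chains, beside 41.5% of genes called, 22.4% higher and 19.1% lower. The log2 changes were -1.10 ± 0.12 for Cd3e, -0.64 ± 0.19 for Cd3d, -0.86 ± 0.16 for Cd3g and -1.46 ± 0.17 for Cd247 (edgeR adjusted p = 3.26e-08, 0.00791, 4.26e-05 and 3.57e-08). For Cd3e and Cd247, all 22 tumours lay below all 6 Cdc20(+/D) thymus libraries, and ranges without overlap were found for 7.83% of genes. Both comparisons share the tumour libraries.

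Genes of proximal signalling and of the receptor response were lower in the tumours too. Of the 15 proximal signalling genes, 0 rose and 11 fell relative to Cdc20(D/AAA) thymus (median log2 change -0.94, against 0.04 over all genes). These included Rasgrp1 (-1.92 ± 0.43) and Lcp2 (-1.46 ± 0.17). Of 10 receptor-response genes tested, 0 rose and 10 fell (median -1.77), led by Egr2 (0.926 CPM in tumours and 22.5 CPM in thymus, -4.61 ± 0.71) and Nr4a3 (-2.66 ± 0.55). Of the 13 negative regulators 0 rose and 5 fell, Cd5 by 2.31 on the log2 scale. These counts stand beside the 18.1% of all genes that rose and the 16.8% that fell. Of the 13 transcription factors 1 rose, Tcf3, which encodes the E proteins E12 and E47 (0.62 ± 0.19), and 4 fell, among them Ets1 (-0.70 ± 0.14) and Bcl11b (-0.63 ± 0.15), a total close to the 34.9% of all genes called. Of 7 receptor constant regions 0 were called. B cell markers were lower in the tumours as well, with a median sum of 5.74 CPM against 64.7 CPM in Cdc20(D/AAA) thymus, and the DP markers summed to a median of 903 CPM against 2056 CPM. Their part in the falls was not tested.

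Tumours differed from one another in their levels of Ptcra and Trac, and most held both. Per kilobase, Ptcra made up from 0.0619% to 98.9% of the sum of Ptcra and Trac among the 22 Cdc20(D/AAA) tumours, with a mean of 30.0%, and 2.91% to 5.98% in Cdc20(+/D) thymus. Both genes were above 10 CPM in 14 of the 22 tumours. Ptcra exceeded Trac per kilobase in 5 of the 22 tumours. In 3 of those 5, replicates 15, 21 and 22, chosen by their values, Trac was at 9.88, 7.97 and 1.11 CPM, beside 174, 171 and 138 CPM of Ptcra. At the other end, replicate 11 had 0.203 CPM of Ptcra and 239 CPM of Trac, and replicate 8 had 2.03 and 594 CPM. In replicates 15, 21 and 22, Cd3e was 939, 1032 and 981 CPM, and in replicates 11 and 8 it was 1176 and 1089.8 CPM. Over all 22 tumours the Spearman correlation with Ptcra, as a description, was 0.0367 for Cd3e, 0.31 for Cd3d, 0.44 for Cd3g and -0.15 for Cd247.

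**Figure D4:**
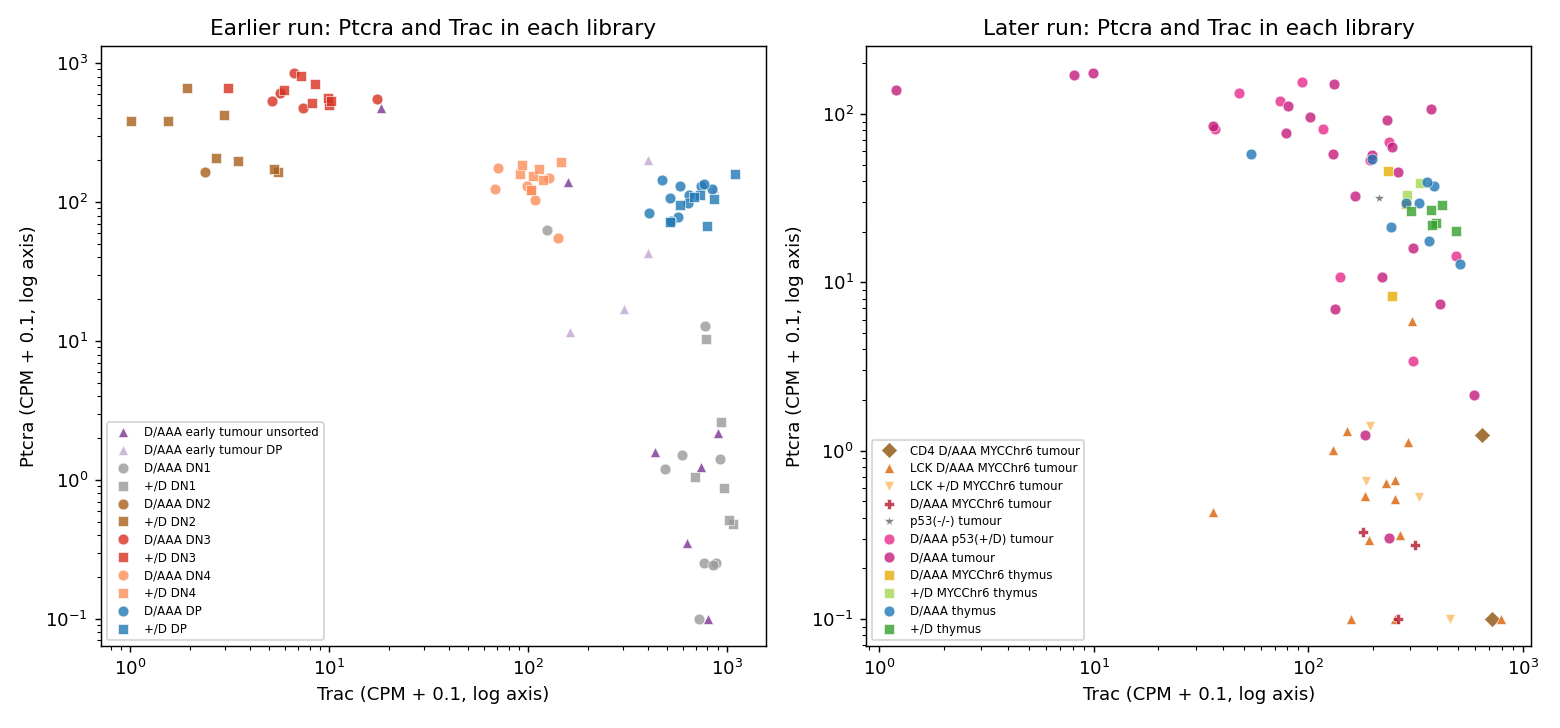
Ptcra against Trac in each library, in CPM + 0.1 on log axes, for the earlier table in one panel and the later table in the other; the axes show each gene's own level and not a comparison per length. DN2 and DN3 libraries lie at high Ptcra and low Trac, Cdc20(D/AAA) tumours run from 0.203 to 174 CPM of Ptcra, and MYCChr6 tumours lie at or below 5.80 CPM of Ptcra.

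No member was called between tumours with p53(+/D) and those without. The 10 tumours with it had a lowest, median and highest value of 3.30, 74.7 and 154 CPM of Ptcra, against 0.203, 60.5 and 174 CPM in the 22 Cdc20(D/AAA) tumours (log2 difference 0.07 ± 0.63, edgeR adjusted p = 0.979). Cd3e averaged 922 ± 240.0 CPM with p53(+/D) and 1191 ± 289 CPM without (-0.37 ± 0.13, edgeR adjusted p = 0.144). Of the members 0 were called by edgeR, DESeq2 or limma voom, beside 1.29% of genes, and 2, Cd3e and Cd247, had an unadjusted p under 0.05. Ptcra exceeded Trac per kilobase in 4 of the 10, and both genes were above 10 CPM in 9 of the 10.

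MYCChr6 tumours were almost without Ptcra reads. The 3 Cdc20(D/AAA) MYCChr6 tumours had 0, 0.176 and 0.228 CPM, which is 2 counts of 15816340. The 22 Cdc20(D/AAA) tumours had 8196 counts of 112541415, a count ratio of 576 over the MYCChr6 tumours (exact 95% interval 159 to 4756, counting error only). The 3 Cdc20(D/AAA) MYCChr6 thymus libraries had 366 counts of 13065034, a ratio of 222 (60.9 to 1836). Every MYCChr6 tumour lay below every MYCChr6 thymus library, and 1 of the 22 Cdc20(D/AAA) tumours, replicate 11 at 0.203 CPM, lay within the MYCChr6 tumours' range.

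Ptcra was also low in the LCK tumours. The 14 LCK-Cdc20(D/AAA) MYCChr6 tumours had a lowest, median and highest value of 0, 0.426 and 5.80 CPM of Ptcra, with 3 tumours at 0 counts. They held 57 counts of 76033933, of which 27 came from 1 tumour, replicate 6. The count ratio of the Cdc20(D/AAA) tumours over them was 97.1 (74.9 to 128). The ranges of these groups overlapped, and 5 of the 22 Cdc20(D/AAA) tumours lay under 10 CPM of Ptcra. The 4 LCK-Cdc20(+/D) MYCChr6 tumours had 1.304, 0.428, 0.563 and 0 CPM, 11 counts in all, against 765 counts in the 6 Cdc20(+/D) thymus libraries, a ratio of 44.2 (24.6 to 89.0) of thymus over tumours. Low Ptcra was thus found with the RERT2 and the LCK prefix in Cdc20(D/AAA) MYCChr6 tumours, and in the Cdc20(+/D) MYCChr6 tumours, which all have the LCK prefix. Trac ranged from 181 to 313 CPM in the 3 Cdc20(D/AAA) MYCChr6 tumours, all within the range of Cdc20(D/AAA) thymus, and from 36.1 to 791 CPM in the 14 LCK-Cdc20(D/AAA) ones, of which 12 lay within it. Relative to the range of Cdc20(+/D) thymus, 2 of these 3, 12 of these 14 and 2 of the 4 LCK-Cdc20(+/D) tumours lay below.

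The edgeR fit called Ptcra lower in Cdc20(D/AAA) MYCChr6 tumours relative to Cdc20(D/AAA) tumours (adjusted p = 0.00957), together with Cd3e and Cd247, 3 of 5 members lower beside 9.23% of genes, 5.65% higher and 3.57% lower. Cd3e had 1059, 339 and 637 CPM in the MYCChr6 tumours, against a median of 1111 CPM in the others (log2 change -0.80 ± 0.25, edgeR adjusted p = 0.0396). Cd247 had 220.3, 91.3 and 75.03 CPM, against a median of 278 CPM (-1.27 ± 0.33, edgeR adjusted p = 0.0116). Cd3d and Cd3g had log2 changes of 0.18 and -0.16, without a call. Markers of other cells differed as well: 5 of 5 B cell markers rose, with a summed median of 237 CPM (4.17 to 294) in the MYCChr6 tumours and 5.74 CPM (0 to 36.1) in the others. Of the 5 innate markers 2 could be tested and both rose, with summed medians of 114 and 9.08 CPM. Their part in the lower CD3 levels was not tested. The calls rest on few libraries. Without replicate 1 Ptcra had an edgeR adjusted p of 0.056. Without replicate 2 Cd3e had 0.298 and Cd247 0.0914, and without replicate 3 Ptcra had 0.0591, Cd3e 0.165 and Cd247 0.131. With limma voom the Ptcra adjusted p was 0.688.

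Against MYCChr6 thymus, 1 of 5 members was called in the 3 Cdc20(D/AAA) MYCChr6 tumours, Ptcra (edgeR adjusted p = 0.0204), beside 2.17% of genes, 0.919% higher and 1.25% lower. That call was lost when any of the 3 thymus libraries was left out (edgeR adjusted p = 0.05, 0.149 and 0.155 without replicates 1, 2 and 3). Cd247 had 220.3, 91.3 and 75.03 CPM in these tumours, against 511, 552 and 458 CPM in MYCChr6 thymus, with no overlap, as for 28.2% of genes in these small groups (-2.02 ± 0.41, edgeR adjusted p = 0.0529). It passed with DESeq2 (adjusted p = 0.000815), and without tumour replicate 1 it passed with edgeR (adjusted p = 0.00888), as did Cd3e (adjusted p = 0.0498).

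The 14 LCK tumours gave a further comparison of the CD3 chains, on more libraries. Their prefix and MYCChr6 both differ from the Cdc20(D/AAA) tumours, so the parts of prefix and MYCChr6 cannot be told apart. Relative to the 22 Cdc20(D/AAA) tumours, 3 members fell in the 14 LCK-Cdc20(D/AAA) MYCChr6 tumours, beside 35.3% of genes, 18.6% higher and 16.7% lower. Cd3e had a lowest, median and highest value of 141, 529 and 945 CPM, against 849.8, 1111 and 2097 CPM in the Cdc20(D/AAA) tumours (-1.17 ± 0.15, edgeR adjusted p = 1.41e-07). Cd247 had 30.5, 94.3 and 235 CPM, against 195, 278 and 627 CPM (-1.64 ± 0.19, edgeR adjusted p = 2.99e-08). Ptcra was called by edgeR (adjusted p = 1.13e-07) and not by limma voom (adjusted p = 0.118). Cd3d averaged 218 ± 66.6 and 234 ± 95.4 CPM and Cd3g 126 ± 41.5 and 161 ± 48.8 CPM in the LCK MYCChr6 and the Cdc20(D/AAA) tumours (SD, n = 14 and 22), and neither was called (-0.09, and -0.33 at edgeR adjusted p = 0.0933). Thus Cd3e and Cd247 fell where their partners Cd3d and Cd3g did not pass the test, though the differences between members were not tested.

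In the 4 LCK-Cdc20(+/D) MYCChr6 tumours relative to Cdc20(+/D) thymus, 4 of 5 members fell, beside 32.3% of genes, 16.4% higher and 15.9% lower. Prefix, MYCChr6 and tumour status all differ in this comparison and cannot be told apart. Cd3e had 612, 614, 536 and 871 CPM, against 2223 to 2649 CPM in thymus (-1.96 ± 0.17, edgeR adjusted p = 6.12e-06). Cd247 had 71.5, 86.7, 74.8 and 397 CPM, against 739 to 922 CPM (-2.45 ± 0.50, edgeR adjusted p = 0.00337), and Cd3g fell by 1.02 on the log2 scale (edgeR adjusted p = 0.00985). The ranges of Cd3e and Cd247 did not overlap those of thymus, as for 25.3% of genes. Tumour replicate 4 stood apart in Cd247, and without it the log2 change of Cd247 was -3.49. Cd3d missed the threshold (-0.63, edgeR adjusted p = 0.0805) and passed without that tumour (-0.93, edgeR adjusted p = 0.0076). Between LCK-Cdc20(D/AAA) and LCK-Cdc20(+/D) MYCChr6 tumours 0 members were called, and likewise between LCK-Cdc20(D/AAA) and Cdc20(D/AAA) MYCChr6 tumours, beside 0% of genes each (653 and 468 genes and 0 members at an unadjusted p under 0.05; 0 members by DESeq2 or limma voom). Ptcra did not pass the filter on low counts in either.

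Other genes of the pathway were compared between LCK-Cdc20(D/AAA) MYCChr6 and Cdc20(D/AAA) tumours, where 18.6% of all genes rose and 16.7% fell. Prefix and MYCChr6 differ together here too. Among the 13 transcription factors, 1 rose and 9 fell in LCK-Cdc20(D/AAA) MYCChr6 tumours relative to Cdc20(D/AAA) tumours (median -0.74, against 0.001 over all genes). Notch1 averaged 67.2 CPM there and 1949 CPM in the Cdc20(D/AAA) tumours (-4.83 ± 0.65, edgeR adjusted p = 5.63e-07), and its part in the low Ptcra was not tested. Lef1 (-1.66 ± 0.33) and Runx1 (-1.62 ± 0.25) fell too, and Spi1, the myeloid and B lineage factor PU.1, rose (2.61 ± 0.51). Of the 15 proximal signalling genes 2 rose, Syk (3.08 ± 0.49), a kinase that can act in place of Zap70, and Sh2d1a (0.60 ± 0.21), and 2 fell, the adaptor Lat (-1.31 ± 0.19) and Lck (-0.86 ± 0.15), a smaller share than the 35.3% of all genes called. Of 7 other ITAM chains and adaptors 5 rose and 0 fell, led by the B cell receptor chains Cd79a (5.06 ± 0.83) and Cd79b (4.37 ± 0.84). The 5 B cell markers, which include both chains, summed to a median of 51.6 CPM (2.15 to 1298) in the LCK-Cdc20(D/AAA) MYCChr6 tumours and 5.74 CPM (0 to 36.1) in the Cdc20(D/AAA) tumours. The 5 natural killer and innate markers summed to 109 and 9.08 CPM, and the 5 myeloid markers to 247 and 57.8 CPM. Their part in the lower CD3 levels was not tested; LCK replicate 9, with 643 CPM of Cd79a, also had the lowest Cd3e of its group at 141 CPM.

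The genes whose levels ran most like each member are given as a description, by Spearman correlation of log2(CPM + 1) over libraries that share their scaling. Over the 37 sorted Cdc20(+/D) libraries these were Naxd (0.943), Camkv (0.932) and Gfra1 (0.925) for Ptcra, and Socs1 (0.914), Psap (0.881) and Trim8 (0.871) for Cd3e. For Cd3d they were Ndufaf3 (0.803), Tcaim (0.762) and Prdx5 (0.761), for Cd3g Akr1c13 (0.895), Pqlc3 (0.892) and Mcfd2 (0.874), and for Cd247 Parp6 (0.790), Ppp2r5b (0.790) and Clcn4 (0.778). Among the members, the correlation was 0.577 between Ptcra and Cd3g and -0.46 between Ptcra and Cd247. The neighbours Cd3d and Cd3g had 0.0984 over the sorted libraries but 0.728 over the 22 Cdc20(D/AAA) tumours.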

How the data were processed

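Bulk RNA-seq of 157 mouse libraries was analysed from 2 deposited tables of expected counts per gene, all whole numbers. Per the submitters' processing notes, FastQC, STAR 2.5.3a, RSEM 1.3.0 and GRCm38 (mm10) were used. The strand setting is not given in the sources used here. Per the labels' protocol, a column kit (RNeasy Plus Mini) gave the RNA.

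Gene names and exons came from the GRCm38 annotation (50376 of 50686 identifiers had a symbol). CPM used trimmed mean of M-values factors within each table. Each comparison was fitted over all genes passing filterByExpr with edgeR 4.0.16 (robust quasi-likelihood F-test, 2-sided, Benjamini-Hochberg adjustment over all genes tested, threshold 0.05) in R 4.3.3. The stages of a genotype shared 1 fit, and each other pair was fitted alone. Standard errors were derived from the F statistic as |log2 fold change|/√F. DESeq2 1.42.0, limma 3.58.1 (voom with quality weights), relative log expression factors, no filter, 1 fit of all libraries of a table, leaving out shallow libraries, single replicates of groups of 2 to 5, or the gene CT010467.1, which takes 30.1% to 56.0% of the counts in the later table, were alternatives. Python 3.11.15 made the tables and figures. The fit was tested on simulated counts with 100 genes changed 4-fold and 100 changed 2-fold per comparison. It recovered 90% of the 4-fold changes in the p53(+/D) comparison, 48% between the LCK genotypes, 31% between LCK and RERT2 MYCChr6 tumours and 0% between MYCChr6 tumours and MYCChr6 thymus. Of the 2-fold changes it recovered 56%, 8%, 1% and 0% in the same order. Between genotypes at DN1, DN3, DN4 and DP, 27%, 41%, 49% and 46% of the 2-fold changes were recovered. False calls at the steps to DN2, DN3 and DN4 in Cdc20(+/D) cells were 12 of 133, 12 of 140 and 11 of 139 calls. For MYCChr6 in Cdc20(D/AAA) tumours they were 7 of 79. These shares exceed the threshold of 0.05, and the other comparisons with calls had lower shares.

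The 5 members are always named. From each pathway list, up to 4 called genes with the largest change and at least 5 CPM in 1 group may be named. Some of these genes are not reported here. Likeness used genes with at least 10 CPM on average. The members and lists were chosen with earlier results of these data known. Replicate numbers are accession order and pair no samples. Depth sets precision; intervals of count ratios cover counting error only.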

Additional observations from a re-analysis of the deposited data

Results flagged for a closer look

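Of 70 sets of 4 to 10 libraries examined, 11 held 1 library far from the rest. The nominal rate by chance is about 5% of sets. Sets of different genes share libraries, so that rate cannot be set against the 11. Ptcra stood out at 62.6 CPM in Cdc20(D/AAA) DN1 replicate 8, against 0 to 12.7 CPM in the other 8, in the library of 21199 counts. It stood out at 10.2 CPM in Cdc20(+/D) DN1 replicate 6, against 0.382 to 2.51 CPM in the rest, and at 476 CPM in unsorted early tumour replicate 2, against 0 to 139.9 CPM. The same early tumour had 2257 CPM of Cd3g, against 962 to 1453 CPM.

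Cd3e was 823 CPM in Cdc20(+/D) DN2 replicate 1, against 379 to 561 CPM. Cd3d was lowest, at 602 CPM, in Cdc20(+/D) DN1 replicate 1, against 874 to 968 CPM, and highest, at 1326 CPM, in early DP tumour replicate 1, against 359 to 619 CPM. Cdc20(D/AAA) p53(+/D) tumour replicate 5 had 487 CPM of Cd3d, against 148 to 285 CPM, and 281 CPM of Cd3g, against 72.3 to 182 CPM. Cd3g was 3132 CPM in Cdc20(D/AAA) DN3 replicate 2, against 1480.4 to 1958 CPM. Cd247 was 397 CPM in LCK-Cdc20(+/D) MYCChr6 tumour replicate 4, against 71.5 to 86.7 CPM in the other 3.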

How the results depend on the processing

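Of the counts of members called, 201 recomputed values stayed within 1.5 times the reported count and 18 did not. In Cdc20(D/AAA) DN4 against DN3 the count was 1 without the filter and 1 to 2 leaving out single replicates, against 2. Limma voom gave 1 for early DP tumours against DP cells, against 0. With the last 25 libraries the count was 0 for early DP tumours against DN4 (against 1) and 1 for unsorted early tumours against DP (against 2), and this count was also 1 without the filter. Leaving out single replicates gave 0 to 2 for MYCChr6 in Cdc20(D/AAA) tumours, against 3. For MYCChr6 tumours against MYCChr6 thymus, against 1, DESeq2 gave 2, no filter 4, 1 fit of all libraries 3, no libraries that stand apart 0, and single replicates left out 0 to 3.

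Of the single members, 979 values kept direction and call, 24 lost and 23 gained the call, and 40, all uncalled, changed sign. Cd247 in Cdc20(D/AAA) DN3 against DN1 was -0.0705 with DESeq2, -0.0607 with relative log expression, -0.0207 without the filter, -0.0154 with voom, -0.014 without the shallow library and -0.0375 to 0.0843 leaving out single replicates. In the first 56 libraries, chosen after seeing the data like the last 25 and the libraries that stand apart, the genotype difference was 0.0132 for Cd3d at DN1, 0.0249 for Ptcra and 0.0788 for Cd3d at DN3, and 0.0709 for Cd3d at DP. Cd3g was -0.16 with voom in early DP tumours against DN4, -0.0218 without libraries that stand apart for MYCChr6 in thymus, and -0.0041, -0.0034 and -0.0086 with DESeq2, relative log expression and no filter for p53(+/D). Cd3d was 0.0203 without LCK replicate 9 for LCK MYCChr6 against Cdc20(D/AAA) tumours. With voom Cd3d was 0.0153 and Cd247 0.071 between the LCK genotypes.

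Leaving out single replicates, the LCK against RERT2 MYCChr6 difference was -0.63 to 0.28 for Cd247, -0.45 to 0.22 for Cd3d, -0.67 to 0.13 for Cd3e and -0.35 to 0.35 for Cd3g. Between the LCK genotypes it was -0.88 to 0.35 for Cd247, -0.32 to 0.17 for Cd3d and -0.38 to 0.18 for Cd3g. At DN3 between genotypes it was -0.0715 to 0.0461 for Cd247, -0.17 to 0.0788 for Cd3d, -0.28 to 0.0111 for Cd3g and -0.16 to 0.0598 for Ptcra. For MYCChr6 in tumours it was -0.28 to 0.38 for Cd3d and -0.65 to 0.0504 for Cd3g, and for MYCChr6 in thymus -0.0855 to 0.004 for Cd3d and -0.84 to 0.17 for Ptcra. Cd3e was -0.34 to 0.0582 in early DP tumours against DP, and Cd3g -0.23 to 0.38 against DN4. The cause of these changes was not tested. No paired analysis was possible because the labels give no replicate numbers and do not say which libraries share an animal, so the numbers used here are accession order; stages may share animals. Depth limits Ptcra most, at 2 counts in the MYCChr6 tumours and in the shallowest DN1 library.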

Other observations

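The 2 CD4-Cdc20(D/AAA) MYCChr6 tumours entered no test. They had 1.14 and 0 CPM of Ptcra beside 644 and 716 CPM of Trac, with 601 and 651 CPM of Cd3e and 155 and 116 CPM of Cd247. The p53(-/-) tumour had 31.6 CPM of Ptcra, 938 CPM of Cd3e, 477 CPM of Cd3d, 294 CPM of Cd3g and 246 CPM of Cd247. The 2 Cdc20(+/D) MYCChr6 thymus libraries had 38.5 and 32.7 CPM of Ptcra and 2299 and 2039.8 CPM of Cd3e.

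Tumours also differed in the beta constant regions, with the limit that Trbc1 and Trbc2 are near-identical. Trbc1 was under 10 CPM in 8 of 22 Cdc20(D/AAA) tumours, 6 of 10 with p53(+/D), 2 of 14 LCK-Cdc20(D/AAA) MYCChr6 tumours and 1 of 5 early DP tumours, against 1 of 9 Cdc20(D/AAA) thymus libraries and 0 of 6 Cdc20(+/D) ones. Per kilobase, Cd3e was 0.320 times Cd3d in Cdc20(+/D) DP cells of the earlier table and 3.23 times in Cdc20(+/D) thymus of the later one. The ratio is taken within each library, so the separate scaling of the tables does not enter it. Table and tissue, sorted cells or whole thymus, differ together here and cannot be told apart. This difference was not tested.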
